A study of Mus musculus with 4 samples.

Results

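S100 proteins are small calcium-binding proteins, and the RNA of 10 of their genes was examined in cultured mouse keratinocytes (KCs), the main cells of the epidermis. The members were chosen by name as the rows of S100a3, S100a4, S100a6, S100a7a, S100a8, S100a9, S100a10, S100a11, S100a14 and S100a16, which are 10 of the 25814 genes listed in each deposited table. All 10 had enough reads to be tested. Polyadenylated RNA was sequenced from 4 libraries of untreated primary KCs, prepared from tail skin of adult 129/sv mice and grown without serum at low calcium. In 2 libraries the genotype is labelled Wildtype (WT), and in the other 2 it is labelled Nfat5-Knockout (written Nfat5-/- here), with no further allele or treatment in either group. The Nfat5-/- mice lack the osmosensitive transcription factor NFAT5 in all tissues and had WT siblings as controls. The methods of the study ascribe small size, atrophy of the kidney and a lasting excess of sodium in the blood to the 129sv mice, in words that name the strain and not the genotype. The tails were kept on ice overnight before the cells were prepared. The titles label the libraries of a genotype as replicates 1 and 2, with no word on their independence. The paper describes the transcriptomes as those of KCs from 2 WT and Nfat5-/- sibling mice. It does not say whether 2 is the number per genotype, and no source used here ties a library to 1 animal.

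Most S100 genes of mammals lie side by side on 1 chromosome, where a cluster flanks the Epidermal Differentiation Complex (EDC), the gene block that also holds the small proline-rich (Sprr), late cornified envelope (Lce), loricrin and filaggrin genes. An S100 protein usually forms dimers, changes its shape when calcium binds its EF-hands and then docks to target proteins such as annexins. S100A8 and S100A9 form a heterodimer, calprotectin, which binds zinc and manganese, is abundant in neutrophils and is known to be induced in KCs of wounded or inflamed skin. S100A7A is the mouse relative of human psoriasin, an antimicrobial protein of inflamed epidermis.

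Depth was between 16219445 and 23494436 gene reads per library. At this depth 3 reads, taken as the smallest number to be trusted, equal 0.128 to 0.185 reads per 1000000, and this floor covers counting error only. The reads of Nfat5 itself did not separate the labels: WT had 408 and 929, against 715 and 770 in the libraries labelled Nfat5-/- (edgeR adjusted p 0.913). A deletion of some exons would not be seen in such totals, so these reads are no check of the labels. The KC genes Krt5 and Krt14 were between 4990 and 6985 RPKM (exon reads per kilobase of exon and per 1000000 mapped reads) in every library, whereas Krt1 and Krt10, keratins of the upper epidermal layers, stayed below 1 RPKM. Of 7 KC genes tested none passed in edgeR or DESeq2, and 2, Itga6 and Krt1, had an unadjusted p under 0.05, as had 14.6% of all genes.

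Between the labelled genotypes, 3 neighbouring genes of the cluster differed most. S100a7a fell in Nfat5-/- KCs and was the 1 member of 10 past an adjusted p of 0.05 in the edgeR test, against 1.27% of the 12614 genes tested. By direction this was 1 of 10 members lower, against 0.325% of all genes, and 0 of 10 higher, against 0.943%. S100a8 and S100a9 had 2.40 and 2.90 times the WT level in Nfat5-/- KCs and lay just beyond the threshold. The 5 abundant members, S100a11, S100a10, S100a6, S100a14 and S100a16, had ratios between 0.961 and 1.23. The study names S100a7a, S100a8 and S100a9 as changed in these same libraries, so their values here are no independent evidence of a direction.

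The promoters of this trio are given here as reference sequence, because their genes lie next to each other and differed between the genotypes in opposite directions. RefSeq windows of 250 bases before the transcription start (build GRCm38.p6) were at hand for 8 of the 10 members, 12 windows in all. They were searched on both strands for TGGAAA, the core of the sites that NFAT5 binds, and for TGANTCA, the site of AP-1 factors; these motifs do not overlap. TGGAAA occurs in 18.6% and TGANTCA in 6.75% of all 32851 promoter windows of this length. Among the 12 windows TGGAAA was found in 1, that of S100a7a, and TGANTCA in 2, in 1 of the windows of S100a16 and in that of S100a11. The S100a8 and S100a9 windows hold neither motif. Their bases before both the RefSeq start and the gene start in the deposited tables are shown in the direction of transcription. For S100a8 (plus strand) these are 157 bases at chr3:90668821-90668977, and for S100a9 (minus strand) 250 bases at chr3:90695722-90695971.
S100a8: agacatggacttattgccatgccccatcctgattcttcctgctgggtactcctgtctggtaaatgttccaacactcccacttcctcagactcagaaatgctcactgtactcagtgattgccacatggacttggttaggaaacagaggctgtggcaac
S100a9: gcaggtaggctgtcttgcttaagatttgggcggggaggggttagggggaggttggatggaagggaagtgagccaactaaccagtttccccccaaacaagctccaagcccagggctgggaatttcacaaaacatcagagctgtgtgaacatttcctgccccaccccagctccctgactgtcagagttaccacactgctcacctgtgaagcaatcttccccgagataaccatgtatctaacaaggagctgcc

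In the S100a7a window TGGAAA occurs at 2 places, which begin 124 and 22 bases before the RefSeq start and are shown in capitals with their flanks on the plus strand. The first reads in the direction of the gene, at chr3:90654166-90654195, and the second on the opposite strand, at chr3:90654268-90654297. Both lie inside the S100a7a gene as the deposited tables draw it, because those tables start the gene further upstream. A match of letters is a description and shows no binding, and its absence says only that these letters are not in the window.
S100a7a first match: tagaagaacccgTGGAAAgccactcactgg
S100a7a second match: ccttttgtctgaTTTCCAggattgtacaga

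**Figure D1:**
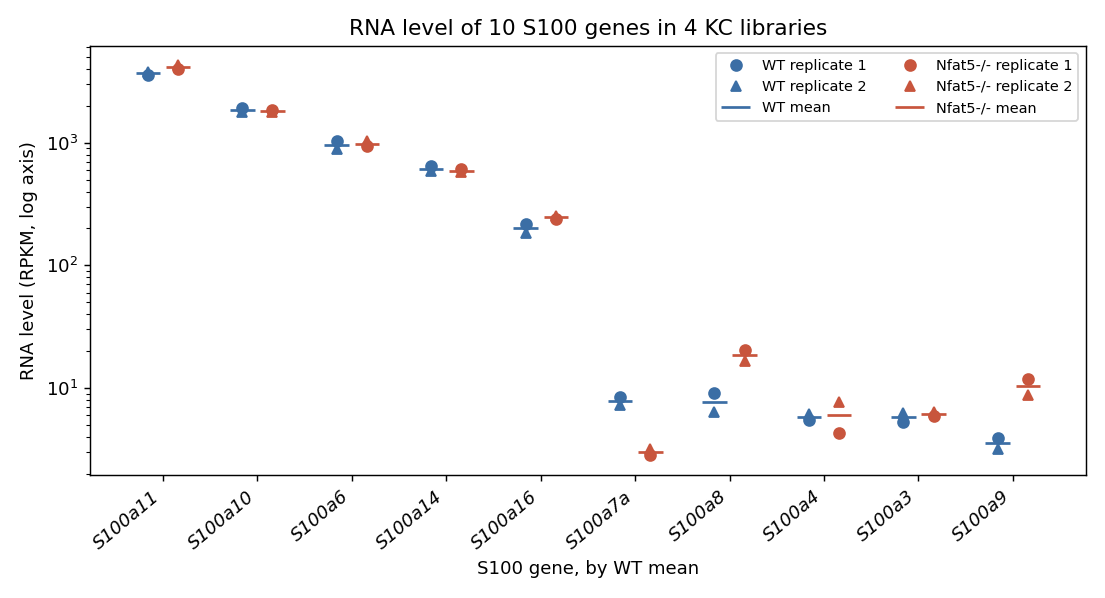
RNA level of the 10 S100 genes (RPKM, log axis), ordered by the WT mean, with 1 point per library and a bar at the mean of each genotype. The 5 abundant genes lie above 180 RPKM and the other 5 below 21 RPKM in every library. S100a7a is lower and S100a8 and S100a9 are higher in both Nfat5-/- libraries than in both WT libraries.

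The members fell into 2 ranges of RNA level. In WT KCs S100a11 was the most abundant, with 3674 ± 109 RPKM (SD, n = 2), followed by S100a10 with 1852 ± 111, S100a6 with 966 ± 104, S100a14 with 614 ± 36.8 and S100a16 with 201 ± 25.4 RPKM (SD, n = 2 each). No neighbours among these 5 overlapped in their libraries. The lead of S100a11 rests on reads with several possible sites, since 45.2% of its exon reads were unique against 100% for S100a10. On unique exon reads alone, over the same exon length, S100a11 was at 1624 and 1728 RPKM in WT, below S100a10 with 1930 and 1773 RPKM. Over all 4 libraries S100a11 held rank 11, S100a10 rank 21 and S100a6 rank 52 among the genes listed. The other members were below 10 RPKM in WT. There the libraries of S100a7a and S100a8 overlapped each other, and so did those of S100a4 and S100a3, while S100a9 was lowest with 3.56 ± 0.507 RPKM (SD, n = 2). In Nfat5-/- KCs this lower order was S100a8, S100a9, S100a3, S100a4 and S100a7a, and only S100a3 and S100a4 overlapped. The places of S100a3 and S100a4 rest on shared reads too, with 26.5% and 44.6% of their exon reads unique. On unique reads S100a3 had the lowest mean in both genotypes, at 1.55 and 1.46 RPKM in WT against 1.72 and 1.58 RPKM in Nfat5-/-. In Nfat5-/- it overlapped with S100a4, which was at 1.71 and 3.59 RPKM. S100a7a, at 2.82 and 3.11 RPKM in Nfat5-/-, overlapped with S100a4 too. Below S100a8 and S100a9 in Nfat5-/- KCs, S100a7a was thus last on all exon reads but not on unique ones.

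The RPKM of the 10 members summed to 7459 and 7218 in WT and to 7682 and 7960 in the Nfat5-/- libraries, a ratio of 1.07 of the means. S100a11 and S100a10 made up most of this sum. S100a11 took 50.1% ± 2.65 of it in WT and 52.9% ± 0.954 in Nfat5-/- KCs (SD, n = 2 each), and S100a10 took 25.2% ± 0.932 and 23.2% ± 0.934 (SD, n = 2 each). On unique exon reads these shares were 31.5% ± 2.61 and 33.6% ± 1.15 for S100a11 and 34.7% ± 0.743 and 32.8% ± 1.21 for S100a10 (SD, n = 2 each), so the size of the S100a11 share depends on how shared reads were placed. Together the 5 abundant members held 99.6% in each WT library and 99.4% and 99.5% in the Nfat5-/- libraries. The make-up of the family by RNA was therefore set by genes whose levels differed little between the genotypes, and the trio that differed most held under 1% of it.

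S100a7a (ENSMUSG00000063767) covers chromosome 3 from 90654017 to 90658669 on the plus strand (GRCm38, 3 exons in the tables). It was at 8.46 and 7.23 RPKM in the WT replicates 1 and 2, and 2.82 and 3.19 RPKM in the Nfat5-/- replicates 1 and 2. Both Nfat5-/- libraries were thus well below both WT libraries. The RPKM rest on 180 and 205 exon reads in WT and on 87 and 78 in Nfat5-/-, of which 98.9% were placed at a single site. With introns, the reads tested were 205 and 238 against 102 and 85. In the edgeR test S100a7a fell by 1.39 on the log2 scale (SE 0.18, 95% interval -1.82 to -0.96, adjusted p 0.0251). Reads over exon junctions gave the same order, with 19 and 30 reads in WT against 11 and 6, and so did reads in the introns, with 25 and 33 against 15 and 7. The call was lost when either Nfat5-/- library was left out, with edgeR adjusted p-values of 0.120 without replicate 1 and 0.158 without replicate 2. The log2 fold changes there were -1.33 and -1.44.

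S100a8 (ENSMUSG00000056054, chromosome 3, 90668978 to 90670035, plus strand) starts 10.3 kb after the end of S100a7a. It was at 9.03 and 6.41 RPKM in WT against 20.5 and 16.5 RPKM in Nfat5-/- KCs. Every Nfat5-/- library was above every WT library, by ratios between 1.83 and 3.20. Reads of the gene numbered 73 and 69 in WT against 241 and 153 in Nfat5-/-, all of the exon reads being unique. The log2 fold change was 1.29 (SE 0.24, 95% interval 0.74 to 1.85), with an edgeR adjusted p of 0.0563 (unadjusted 8.3e-04). Without WT replicate 1, the WT library with the higher level, S100a8 passed the threshold (log2 fold change 1.56, edgeR adjusted p 0.0166). It did not pass without WT replicate 2 or without Nfat5-/- replicate 1 or 2, with edgeR adjusted p-values of 0.0547, 0.221 and 0.230.

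S100a9 (ENSMUSG00000056071, chromosome 3, 90692632 to 90695721, minus strand) encodes the partner of S100A8 and lies 22.6 kb beyond it. Its level was 3.92 and 3.20 RPKM in WT against 11.9 and 8.73 RPKM in Nfat5-/- KCs, from 34, 37, 150 and 87 exon reads. The gene reads tested were 36, 37, 153 and 89. As for S100a8, replicate 1 was above replicate 2 in both genotypes, and the groups did not overlap. The log2 fold change was 1.55 (SE 0.28, 95% interval 0.91 to 2.20), with an edgeR adjusted p of 0.0510 (unadjusted 6.9e-04). Without WT replicate 1 S100a9 passed as well (log2 fold change 1.75, edgeR adjusted p 0.0313), and in the same order the other 3 omissions gave 0.0547, 0.218 and 0.203. Junction reads of S100a9 numbered 5 and 10 in WT against 35 and 21 in Nfat5-/-, and those of S100a8 23 and 36 against 104 and 56. For both genes these reads separated the groups per 1000000 gene reads as well.

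The calls of S100a8 and S100a9 differed between analyses. Of 10 other analyses of the 4 libraries, S100a9 passed in 9 and S100a8 in 6, while S100a7a passed in all 10. With DESeq2 the adjusted p-values were 1.0e-04 for S100a7a, 0.00513 for S100a8 and 0.00828 for S100a9. By a scale of size alone, a ratio of at least 2 between the mean RPKM values, a mean of 2 RPKM or more where it was higher, and groups that did not overlap, S100a7a, S100a8 and S100a9 met the limits, 3 of 10 members against 2.28% of the 9273 genes with such a level. The 1 lower member stands against 0.604% and the 2 higher ones against 1.67% of these genes. This scale involves no test.

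**Figure D2:**
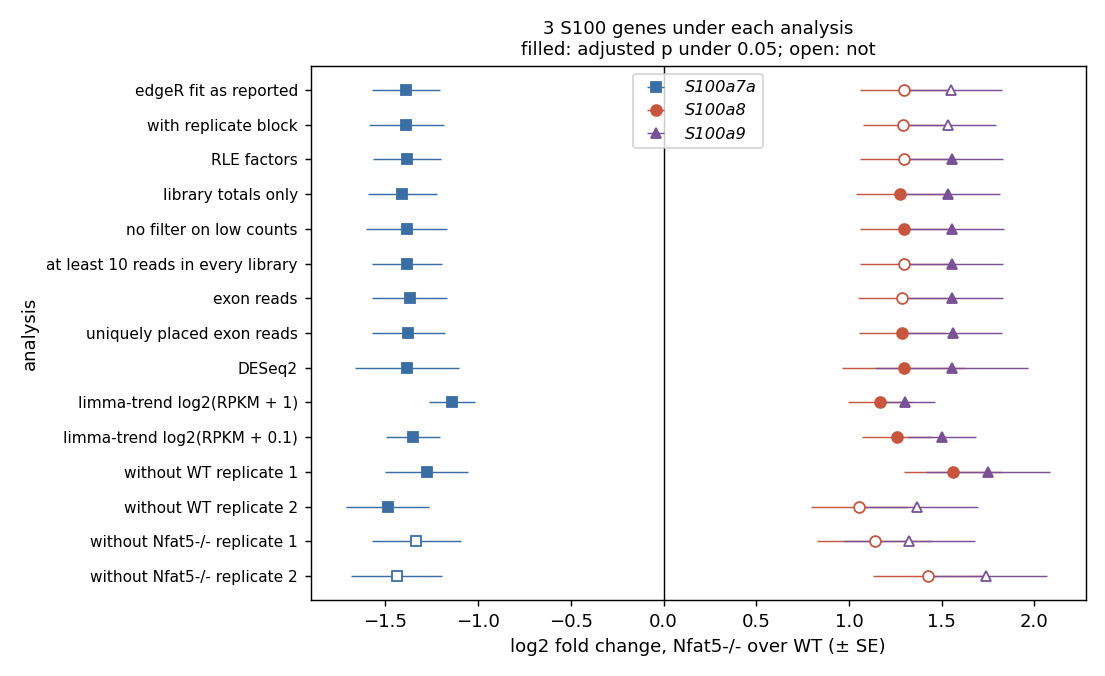
Log2 fold change (Nfat5-/- over WT, ± SE) of S100a7a, S100a8 and S100a9 in the edgeR fit as reported and under 14 other analyses, with filled symbols where the adjusted p was under 0.05. S100a7a lies between -1.49 and -1.14 throughout, S100a8 between 1.06 and 1.56, and S100a9 between 1.30 and 1.75.

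The proportion of S100a8 to S100a9 transcripts differed less between the genotypes than the level of either gene. The ratio of S100a8 to S100a9 RPKM was 2.31 and 2.00 in WT against 1.72 and 1.89 in Nfat5-/- KCs. Both Nfat5-/- libraries were thus below both WT libraries, by less than the change of either gene alone. Against S100a7a the proportion differed widely. The summed RPKM of S100a8 and S100a9 was 1.53 and 1.33 times that of S100a7a in WT, and 11.5 and 7.90 times in the Nfat5-/- libraries. In the profile over the 4 libraries S100a9 was the third nearest of 9270 genes to S100a8, with a root mean square difference of 0.12 in centred log2 reads per 1000000. The other near genes were Ereg (0.086), which encodes the growth factor epiregulin, Mgst1 (0.11), Trex2 (0.14) and Elovl4 (0.15), the elongase of very long fatty acids in the skin barrier. The genes nearest to S100a7a by the same measure were Fat2 (0.081), an atypical cadherin, the interferon-induced Ifi27 (0.11), P2rx2 (0.12), Hoxd11 (0.12) and Irf9 (0.16), a component of the interferon-activated factor ISGF3. With 4 libraries such nearness is a description of the same contrast.

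**Figure D3:**
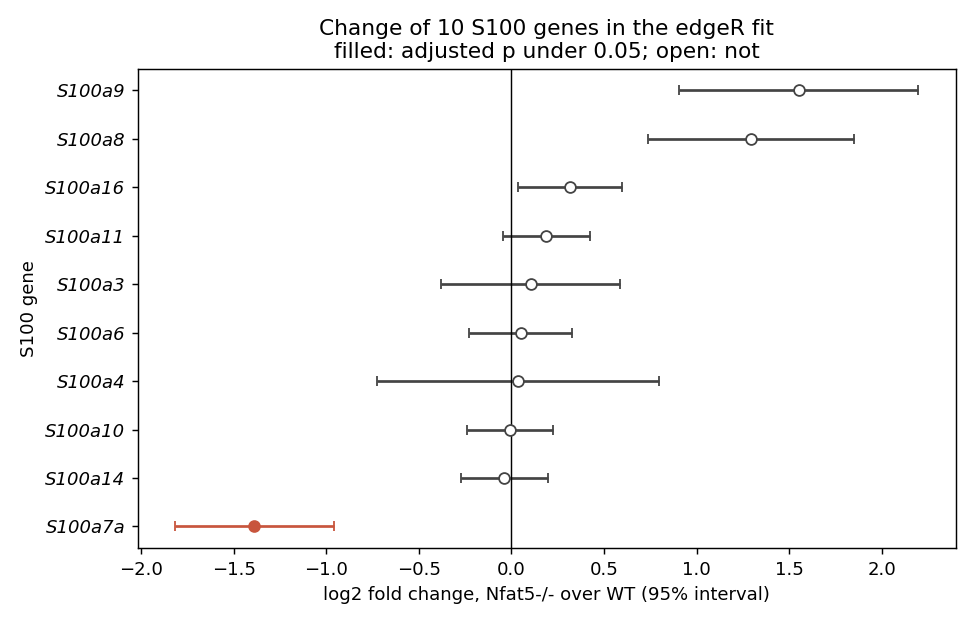
Log2 fold change of the 10 S100 genes in Nfat5-/- over WT KCs with its 95% interval from the edgeR fit, filled where the adjusted p was under 0.05. S100a7a stands at -1.39, S100a8 at 1.29 and S100a9 at 1.55, and the other 7 lie between -0.04 and 0.32.

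Of the abundant members, S100a16 and S100a11 did not overlap between the genotypes. S100a16 (ENSMUSG00000074457, chromosome 3, 90537254 to 90543151), a member broadly expressed in epithelia, was at 219 and 183 RPKM in WT against 240.2 and 254 RPKM in Nfat5-/- KCs. The lower Nfat5-/- library was above the higher WT library by less than the WT libraries were apart. Its log2 fold change was 0.32 (SE 0.12, 95% interval 0.03 to 0.60), with an edgeR adjusted p of 0.296. S100a11 (ENSMUSG00000027907, chromosome 3, 93520488 to 93526287) encodes an annexin A1 partner that is cross-linked into the cornified envelope. It was at 3597 and 3752 RPKM in WT against 4014 and 4267 RPKM in Nfat5-/- KCs, and its log2 fold change of 0.19 did not pass (SE 0.10, edgeR adjusted p 0.442). Only 45.2% of its exon reads were unique, and with unique reads alone the log2 fold change was 0.16 (edgeR adjusted p 0.530). In all, 5 of 10 members did not overlap between the groups in RPKM, a share near the 46.5% among all genes tested. At an unadjusted p under 0.05 stood 4 of 10 members, S100a7a, S100a8, S100a9 and S100a16, against 14.6% of genes.

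The groups overlapped for the remaining abundant genes. S100a10 (ENSMUSG00000041959, chromosome 3, 93555080 to 93564643) encodes p11, the light chain of the annexin A2 complex, which has lost the binding of calcium. Its levels were 1930 and 1773 RPKM in WT against 1834 and 1795 RPKM in Nfat5-/- KCs, with a log2 fold change of -0.01 (95% interval -0.24 to 0.22, edgeR adjusted p 0.981). S100a6 (ENSMUSG00000001025, chromosome 3, 90612882 to 90624181), which encodes calcyclin, stood at 1040 and 892 RPKM in WT against 941 and 1029 RPKM in Nfat5-/-. For S100a6 the log2 fold change was 0.05 (95% interval -0.23 to 0.33, edgeR adjusted p 0.890). S100a14 (ENSMUSG00000042306, chromosome 3, 90526856 to 90528837), an epithelial member, was at 640.3 and 588 RPKM in WT against 608 and 573 RPKM in Nfat5-/-. Its interval ran from -0.27 to 0.20 around a log2 fold change of -0.04 (edgeR adjusted p 0.901).

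S100a3 and S100a4 were low and are less certain. S100a3 (ENSMUSG00000001021, chromosome 3, 90560578 to 90602702), known from the hair cuticle, was at 5.25 and 6.26 RPKM in WT against 5.90 and 6.33 RPKM in Nfat5-/-. S100a4 (ENSMUSG00000001020, chromosome 3, 90603771 to 90606045), a partner of non-muscle myosin that is used as a fibroblast marker, was at 5.46 and 6.11 RPKM in WT against 4.34 and 7.62 RPKM in Nfat5-/-. The Nfat5-/- libraries thus lay on both sides of WT for S100a4. The log2 fold changes were 0.11 for S100a3 and 0.04 for S100a4, with edgeR adjusted p-values of 0.863 and 0.974. Only 26.5% of the exon reads of S100a3 and 44.6% of those of S100a4 were unique. On the same strand the tables list Gm42674, a gene that overlaps both, and S100a2, which lies within S100a3.

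Along the chromosome the S100 genes flank the EDC. The stretch from S100a1 to S100a10 spans 3054 kb of chromosome 3 (90511034 to 93564643 on GRCm38), and 46 of its 80 listed genes were tested. From S100a14 to S100a9 follow 8 of the members, with S100a7a next to S100a8, while S100a11 and S100a10 lie at the far end. Between S100a9 and S100a11 were 34 tested genes, of which 32 had a log2 fold change above 0, against 6061 of all 12614 genes tested. Those past the threshold, 3 of 34 against 0.943% of all genes, were Sprr1b, Sprr1a and Lce1h, all higher in Nfat5-/- KCs, with log2 fold changes of 1.90, 1.58 and 1.17. S100a7a was the only gene of the 46 past the threshold in the other direction. Its neighbour on the side away from S100a8, S100a6, had a log2 fold change of 0.05. On the far side of S100a9 came Pglyrp4, a peptidoglycan recognition protein, with 2.73 (edgeR adjusted p 0.0725).

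**Figure D4:**
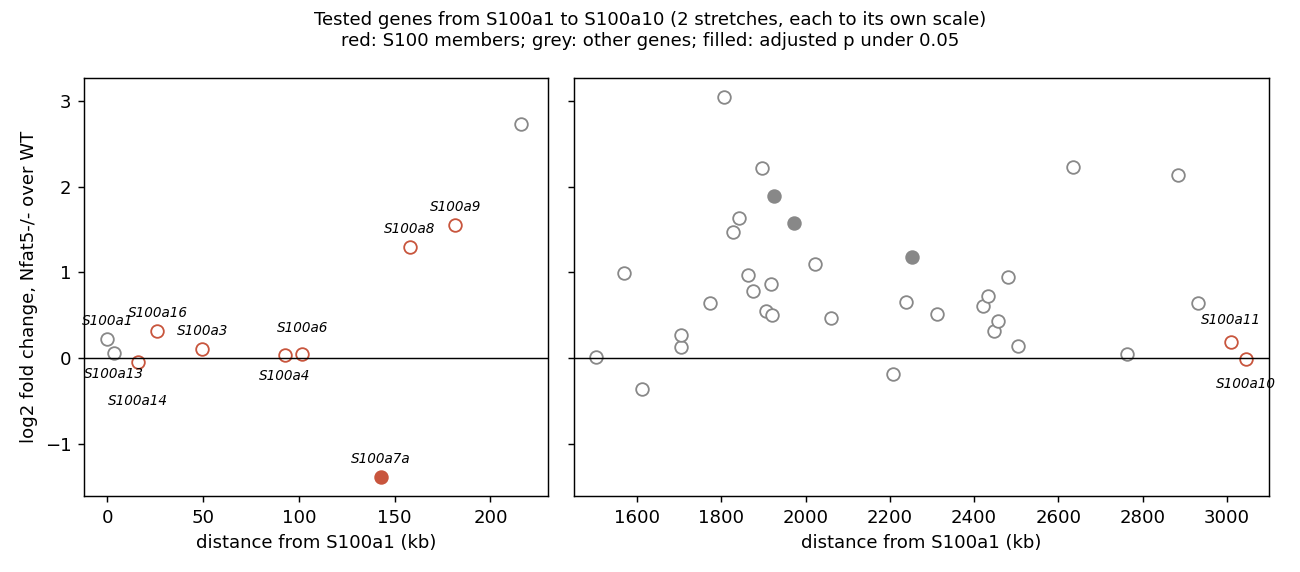
Log2 fold change (Nfat5-/- over WT) of the 46 tested genes from S100a1 to S100a10 against their distance in kb from the start of S100a1, in 2 stretches each drawn to its own scale, with S100 members in red, other genes in grey and filled symbols where the adjusted p was under 0.05. S100a7a at 143 kb is the lowest point, and S100a8 and S100a9 follow at 158 and 182 kb on the other side of the line.

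The S100 genes outside the 10 members were at low levels. Of 8 written, 7 were listed, and S100a1 and S100a13 were tested. S100a1 and S100a13 overlapped in level. S100a1 was the higher by its mean over the 4 libraries but not in WT, with 9.10 and 10.02 RPKM in WT against 9.99 and 12.2 RPKM in Nfat5-/- (edgeR adjusted p 0.657), and S100a13 was at 8.92 and 10.6 against 9.75 and 10.6 RPKM. Neither tested gene passed in edgeR or DESeq2, and 0 had an unadjusted p under 0.05. S100a5 and S100z had no read in any library. The S100-fused genes, whose long proteins carry an S100 domain at their start, were below 3 RPKM in any library. Of 7, 4 were tested and none passed the edgeR threshold, with a median log2 fold change of 1.39 against -0.01 for all genes tested. At an unadjusted p under 0.05 stood 2 of the 4, Crnn and Rptn, against 14.6% of all genes, and DESeq2 called 1, Crnn, and 426 of all 12614 genes. They had log2 fold changes of 2.23 and 2.14 (edgeR adjusted p 0.105 and 0.225). The reads of Flg, for filaggrin, lay mostly in its introns: exon reads numbered 24 and 44 in WT against 77 and 159 in Nfat5-/-, and intron reads 626 and 828 against 881 and 617. Its log2 fold change was 0.06 on all gene reads (edgeR adjusted p 0.858) and 1.74 on exon reads alone (edgeR adjusted p 0.142), so it differed with the reads counted and passed with neither. Tchh, the most abundant of these genes by RPKM, was at 1.16 and 0.822 RPKM in WT against 1.01 and 2.03 RPKM in Nfat5-/-.

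Among 8 genes for binding partners of S100 proteins, 1 rose and none fell in edgeR, where 0.943% of all genes were higher. At an unadjusted p under 0.05 stood 3 of the 8, Anxa1, Anxa6 and Myh9, against 14.6% of all genes. DESeq2 called 2, Anxa1 and Anxa6, and 426 of all 12614 genes. Anxa1, for annexin A1, a partner of S100A11, rose from 1569 and 1558 to 2312 and 2355 RPKM (log2 fold change 0.60, SE 0.09, edgeR adjusted p 0.0367). Anxa2, for the partner of S100A10, was at 1406 and 1175 RPKM in WT against 1259 and 1341 RPKM in Nfat5-/-, so the groups overlapped. Anxa6, for annexin A6, was at 42.4 and 49.6 RPKM in WT against 62.6 and 66.4 RPKM in Nfat5-/- (log2 fold change 0.51, edgeR adjusted p 0.102). The ratio of Anxa2 to S100a10 RPKM was 0.729 and 0.663 in WT against 0.687 and 0.747 in Nfat5-/- KCs. The median log2 fold change of the 8 partner genes was 0.13.

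Of 7 genes for proteins that have been described as receptors of extracellular S100 proteins, 5 were tested and 1 rose in edgeR, against the same 0.943% of all genes. DESeq2 called 1 as well, and 3 of the 5, Mcam, Bsg and Nptn, had an unadjusted p under 0.05, as had 14.6% of all genes. Mcam, for the adhesion molecule CD146 that binds S100A8/A9 and is also known from smooth muscle, rose from 1.99 and 2.27 to 7.08 and 11.8 RPKM (log2 fold change 2.15, SE 0.26, edgeR adjusted p 0.0203). Bsg, for basigin, was the most abundant receptor gene, with 277 and 274 RPKM in WT against 309.8 and 336 RPKM in Nfat5-/- (edgeR adjusted p 0.329). Ager, for the receptor RAGE, and Cd36 were below 0.11 RPKM in all libraries and were not tested, and Tlr4 was between 1.18 and 1.55 RPKM. The median log2 fold change of the 5 tested receptor genes was 0.25.

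Several S100 genes are also markers of other cells, so markers of those cells were set beside them. In such bulk RNA, fewer cells of a type and less RNA per cell cannot be told apart. Of 8 listed myeloid genes, 3 were tested and none passed in edgeR or DESeq2, with 0 at an unadjusted p under 0.05. Their summed RPKM was 21.7 and 14.9 in WT against 18.01 and 18.1 in Nfat5-/-, most of it from Cd68, which had 20.6 and 13.2 against 16.3 and 16.5 RPKM. The defining neutrophil genes were at or near 0: Elane had no read in any library, and Mpo, Csf3r and Ly6g were at most 0.0556 RPKM. Cd207, the marker of Langerhans cells, was listed at 0 in 3 libraries and at 0.0344 RPKM in Nfat5-/- replicate 2. Of the 5 Langerhans cell genes 4 were tested and none passed in edgeR or DESeq2 (H2-Aa, 1 of 4, at an unadjusted p under 0.05, against 14.6% of all genes), and Epcam, which KCs share, was the most abundant at 299.96 to 379 RPKM.

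Fibroblast markers, set beside S100a4, summed to 0.598 and 0.514 RPKM in WT and to 0.850 and 1.83 RPKM in Nfat5-/- over 7 genes. Of the 3 tested none passed in edgeR or DESeq2 (Thy1, 1 of 3, at an unadjusted p under 0.05, against 14.6% of all genes), and Col1a1 was highest with 0.804 RPKM in Nfat5-/- replicate 2. Lum, Col1a2 and Col3a1 were at most 0.0568 RPKM. Smooth muscle genes summed to 184 and 151 RPKM in WT and to 518 and 819 RPKM in Nfat5-/-, and all 4 that were tested, Acta2, Tagln, Cnn1 and Myh11, rose, against 0.943% of all genes. The log2 fold changes of the first 3 ran from 2.00 to 2.17, and Myh11 had 1 read in each WT library against 22 and 40 reads in Nfat5-/- and did not pass on exon reads alone. Des was listed at 0 in 3 libraries. The part of such cells in the rise of Mcam was not tested. Melanocyte genes summed to 7.54 and 7.20 RPKM in WT and to 2.30 and 3.20 RPKM in Nfat5-/- over 6 genes. Of the 5 tested, 1 fell, Tyrp1, against 0.325% of all genes lower, by 2.04 on the log2 scale (edgeR adjusted p 0.0203). At an unadjusted p under 0.05 stood 3, Tyrp1, Dct and Pmel, against 14.6% of all genes, and DESeq2 called 2, Tyrp1 and Pmel. The log2 fold changes of those that did not pass in edgeR were -1.65 for Dct, -1.30 for Pmel, -1.10 for Tyr and 0.27 for Mitf. Mlana, which was not tested, overlapped between the groups, with 0.483 and 0.580 RPKM in WT against 0.533 and 0.336 in Nfat5-/-. S100b, the S100 gene of melanocytes and Schwann cells, was at 0.0811 and 0.0913 RPKM in WT and at 0 RPKM in both Nfat5-/- libraries. These values lie near the floor, with 3 and 5 gene reads in WT against 1 and 0 in Nfat5-/-. Only 40% of its exon reads were unique, and S100b was not tested. Schwann cell genes summed to 8.83 and 7.10 RPKM in WT against 6.94 and 7.14 in Nfat5-/-. Of 5 genes 2 were tested and none passed in edgeR or DESeq2, with 0 at an unadjusted p under 0.05, and Mbp was highest with 4.56 to 6.99 RPKM.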

How the data were processed

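RNA-seq was done on 4 KC libraries. The authors trimmed the reads, aligned them to GRCm38 and counted them with CLC Genomics Workbench 12.0 at its default settings. The deposited counts are whole reads per gene, in exons, introns and over exon junctions, each also as uniquely placed reads, and the authors also deposited RPKM values written with decimal commas. Use of strand in counting, and the treatment of reads with several sites, are not given in the sources used here.

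Group and replicate number came from the sample titles. Total gene reads were filtered with filterByExpr, scaled with TMM and tested with edgeR 4.0.16 in R 4.3.3 (quasi-likelihood, genotype as sole term, two-sided, Benjamini-Hochberg adjustment over all 12614 genes tested, threshold 0.05). An SE is the log2 fold change divided by the square root of F. The p-values measure the spread between the libraries of a genotype, which are labelled only as replicates. Whether this is a spread between mice is not known. The 2 libraries of each group differed by more than sampling noise (chi-square per degree of freedom 13.3 and 13.8). The alternatives included DESeq2 1.42.0 and limma 3.58.1 on log2(RPKM + 1) and log2(RPKM + 0.1). For limma, genes needed at least 1 RPKM in at least 2 libraries, a filter chosen after seeing the data. The use of unique exon reads for the levels of single members and for the S100a11 share was chosen after seeing the data too.

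All 10 members are named. Of the other lists, the genes past the threshold and the most abundant gene are named, besides the 5 genes of nearest profile. Further genes (Krt5, Krt1, Krt10, Crnn, Rptn, Anxa2, Ager, Cd36, Tlr4, S100b, Itga6, H2-Aa, Thy1, Flg, Anxa6, Myh9, Nptn, Dct, Pmel, Tyr, Mitf, Mlana, S100a13, neighbours of the cluster and markers at or near 0) were chosen after their values were seen. Members and lists were chosen with earlier results of these data known. S100a7l2 and Itgam were not analysed here, and no protein sequences were used here.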

Additional observations from a re-analysis of the deposited data

Results flagged for a closer look

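Intron reads were not tested on their own. S100a16 had 12 and 14 of them in WT and 26 and 28 in the Nfat5-/- libraries, a ratio of 1.88 per 1000000 gene reads, with both Nfat5-/- libraries above both WT libraries. The difference was not tested, and it rests on 80 reads in all. S100a16 was the only member with at least 10 intron reads to show this order.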

How the results depend on the processing

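S100a7a kept its direction in all 14 other analyses, as did S100a8, S100a9, S100a11 and S100a16. The count of members past the threshold was 2 in place of 1 with RLE factors, with at least 10 reads in every library and with exon reads. It was 3 with library totals only, without a filter on low counts, with unique exon reads, with DESeq2 and with limma-trend at either pseudocount. Leaving out 1 library gave from 0 to 3 members: 0 without either Nfat5-/- library and 3 without WT replicate 1. Over all genes the 160 calls became 1137 without a filter and 426 with DESeq2, and from 16 to 478 when 1 library was left out (16 without Nfat5-/- replicate 2, 31 without replicate 1, 268 and 478 without WT replicates 1 and 2). With 1 library left out, the lone library of a group is assumed to vary like the others. With the replicate block, 1 member and 132 genes passed, so the block changed no member's call. The deviations of same-numbered libraries from their group means had a correlation of -0.0652, which with 2 pairs gives no pairing. Some log2 fold changes near 0 changed sign. With 1 library left out they ranged from -0.040 to 0.29 for S100a3, -0.43 to 0.41 for S100a4, -0.059 to 0.18 for S100a6, -0.070 to 0.063 for S100a10 and -0.10 to 0.034 for S100a14. On log2(RPKM + 0.1) S100a4 gave -0.0051. The 3 members at least 2-fold in RPKM and the ratio of summed RPKM stayed within 1.5 times and within the replicate spread in all their alternatives. Taking RPKM from unique exon reads alone, chosen after seeing the data, moved the S100a11 share of the summed RPKM from 50.1% to 31.5% in WT and from 52.9% to 33.6% in Nfat5-/-. The causes of the other shifts were not tested. Low counts limit S100a9, S100a8, S100a4 and S100a3 most.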

Other observations

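S100a11 had more exon reads but fewer intron reads per 1000000 gene reads in the Nfat5-/- libraries. The intron values were 11.8 and 13.6 in WT against 8.56 and 8.21, from 191, 295, 201 and 153 reads, and the groups did not overlap. The difference was not tested, and 45.2% of its exon reads were unique. For S100a7a the intron values moved with the exon values, 1.54 and 1.53 in WT against 0.638 and 0.375. S100a6, S100a10 and S100a14 overlapped between the groups in intron reads, as they did in RPKM.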
